A study of Homo sapiens with 19 samples.

Results

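The sites described here are new HIF-2a peaks of HIF-2a overexpressing 786-O cells, away from every peak of the dimerization partner HIF-1b. New means listed on overexpression and not in control cells. They were taken from the peak lists as the HIF-2a windows of the HIF-2a overexpressing cells that shared no base with a HIF-2a window of the control cells, with a HIF-1a or HIF-2a window of the HIF-1a re-expressing cells, or with a HIF-1b window of any of the 3 kinds of cells. Of 5283 HIF-2a windows in the overexpressing cells, 1409 met this rule, and the 7 lists hold 29309 windows in all. Of the others, 2045 were also new for HIF-2a but overlapped a HIF-1b window of the control cells, 351 were new and overlapped another list, and 1478 overlapped a HIF-2a window of the control cells.

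786-O is an established line from a VHL-defective clear cell renal carcinoma, and all cells compared share this background. They were transduced with a pRRL lentiviral vector that carried no HIF cDNA (control), HIF-1a cDNA (HIF-1a re-expression) or HIF-2a cDNA (HIF-2a overexpression), each ahead of an IRES and EGFP, and were used as pools of infected cells. Binding was measured by 1 ChIP-seq library for each antiserum and kind of cell (PM9 for HIF-2a, NB100-110 for HIF-1b, PM14 for HIF-1a), and expression by RNA-seq with 3 libraries for each kind of cell. The input DNA libraries and the ChIP-seq reads were not analysed here.

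HIF is a heterodimer of an oxygen-regulated alpha subunit, HIF-1a or HIF-2a, and the constitutive subunit HIF-1b, the product of ARNT. The pair binds hypoxia response elements (HREs), whose core is ACGTG or GCGTG, and in cells without VHL the alpha subunits escape degradation. AP-1 is a separate dimer of FOS and JUN proteins that binds TGAGTCA and is common at enhancers far from promoters.

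Each window is 2500 bp wide and carries no score, summit or read count, so a site without HIF-1b is one with no listed HIF-1b peak, and binding below the authors' calling threshold cannot be seen. Likewise, a new site is one with no listed HIF-2a peak in control cells. The paper reports that most sites first detected on HIF-2a overexpression already had weak HIF-2a binding in control cells. That covers all such sites, not these 1409 alone. Distances were taken from the window's midpoint, used in place of a summit. The rule uses overlap alone, so the number of sites, their absence from the other lists and their distance to the other windows are a description. The smallest gap between such a site and a window of another list was 26 bp, and 13 sites lay within 250 bp of one. Just outside the rule, 10 HIF-2a windows of the overexpressing cells shared 250 bp or less with another list, the smallest overlap being 18 bp. The median gap was 42.6 kb and the largest 3491 kb, so that most sites were well separated from the other lists. The nearest other window was a HIF-1b window of the control cells for 491 of the 1409 sites. With 1 library per list, no p-value can be given for a comparison of sites, and the 95% exact binomial intervals below cover counting error only.

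Sequences at the centres of 5 of these windows show the 3 kinds of site found. They are the reference (GRCh37, hg19), 200 bases around the midpoint, 5′ to 3′, with TGAGTCA or its reverse complement TGACTCA and the HRE cores ACGTG and GCGTG or their reverse complements in capitals. The first 3 hold TGAGTCA, the next an HRE core without it, and the last neither.
TNFSF10 site, chr3:172268399-172268598, plus strand: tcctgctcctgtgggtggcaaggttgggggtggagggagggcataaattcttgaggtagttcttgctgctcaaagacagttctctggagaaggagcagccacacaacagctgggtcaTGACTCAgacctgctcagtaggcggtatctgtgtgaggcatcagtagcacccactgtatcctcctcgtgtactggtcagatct
ITGB6 site, chr2:161080769-161080968, plus strand: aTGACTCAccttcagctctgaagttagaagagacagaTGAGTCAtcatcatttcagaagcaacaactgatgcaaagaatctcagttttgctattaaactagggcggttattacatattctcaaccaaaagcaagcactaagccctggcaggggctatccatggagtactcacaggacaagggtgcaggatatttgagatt
EGFR site, chr7:55141769-55141968, plus strand: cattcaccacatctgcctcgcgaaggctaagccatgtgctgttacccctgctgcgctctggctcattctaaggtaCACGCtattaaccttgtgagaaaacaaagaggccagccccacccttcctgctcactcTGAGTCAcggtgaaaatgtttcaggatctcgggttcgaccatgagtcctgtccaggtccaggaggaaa
GPR15 site, chr3:98255390-98255589, plus strand: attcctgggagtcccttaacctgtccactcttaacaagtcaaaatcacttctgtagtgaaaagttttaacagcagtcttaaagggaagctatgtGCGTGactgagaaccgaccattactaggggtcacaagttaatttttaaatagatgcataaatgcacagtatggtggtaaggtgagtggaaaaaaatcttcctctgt
VAV3 site, chr1:108225688-108225887, plus strand: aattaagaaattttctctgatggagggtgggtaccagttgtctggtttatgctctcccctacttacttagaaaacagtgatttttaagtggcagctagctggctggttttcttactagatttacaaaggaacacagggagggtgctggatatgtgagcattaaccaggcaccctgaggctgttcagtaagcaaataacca
Each is named for the gene with the nearest annotated start site. The TNFSF10 site lay between genes, 27.2 kb upstream of the start of TNFSF10, with TGACTCA 20.5 bp from the midpoint. The ITGB6 site, 24.0 kb upstream of ITGB6 and in an intron of an unnamed long non-coding RNA gene, held the motif at 2 places, once in each orientation. The EGFR site lay in an intron of EGFR and held both motifs, TGAGTCA 35.5 bp and the HRE core 22.5 bp from the midpoint. The GPR15 site held GCGTG 3.5 bp from the midpoint. The VAV3 site lay in an intron of VAV3. A match to these letters is a description of the sequence, not evidence of binding by a factor.

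The AP-1 motif was more common at the centres of these sites than in their surroundings. TGAGTCA, searched on both strands within 150 bp of the midpoint, was present in 442 of 1409 sites, or 31.4% (95% interval 29.0 to 33.9%), against 4.05% (3.35 to 4.84%) of stretches of equal length 2 kb to either side. Over all 29309 windows of the 7 lists the share was 14.9%. The HRE core was present in 375 sites, or 26.6% (24.3 to 29.0%), close to the 24.4% (22.8 to 26.0%) in the flanks and under the 60.3% over all windows. ACGTG alone was in 15.6% of sites (13.8 to 17.6%) and in 11.9% of flanks (10.7 to 13.1%), intervals that did not overlap.

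Both motifs together were present in 116 sites (8.23%), TGAGTCA without an HRE core in 326 (23.1%), an HRE core without TGAGTCA in 259 (18.4%), and neither in 708 (50.2%). TGAGTCA occurred at 2 or more places in 72 sites and at 3 or more in 11. In the 116 sites with both words the nearest pair lay a median of 41.5 bp apart, and in 42 of them within 25 bp.

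**Figure D1:**
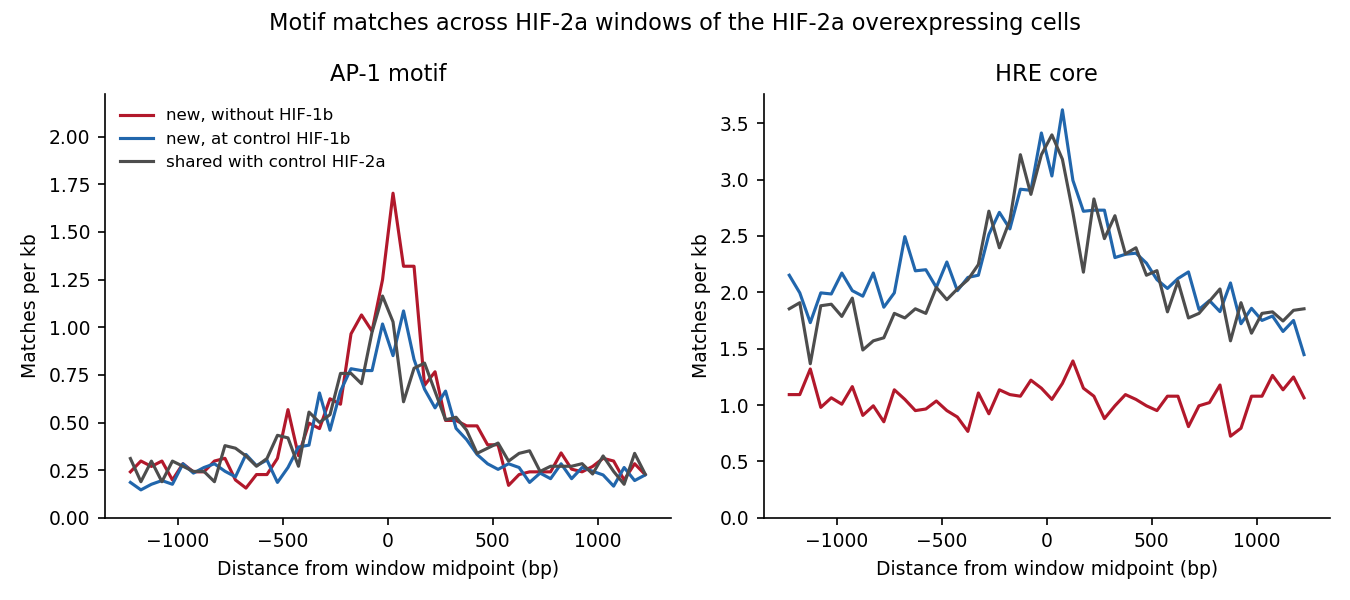
Matches per kb of the AP-1 motif TGAGTCA (left) and of the HRE core (right) in bins of 50 bp across the 2500 bp windows, by distance from the midpoint, for the 1409 new sites without HIF-1b, the 2045 new sites at a control HIF-1b window and the 1478 sites shared with control HIF-2a. The AP-1 motif was densest within 100 bp of the midpoint in all 3 classes and reached 1.70 matches per kb in the sites without HIF-1b, whereas their HRE line stayed between 0.72 and 1.39.

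The AP-1 matches were concentrated at the midpoints. Their density in the sites without HIF-1b was highest in the 50 bp just after the midpoint, at 1.70 matches per kb, and 194 of the 442 sites with the motif had it within 50 bp of the midpoint. HRE cores in the same sites showed no such peak, with 1.15 and 1.05 matches per kb in the bins on either side of the midpoint. At the new sites with HIF-1b and the sites shared with control HIF-2a the HRE core did peak, at 3.619 and 3.396 matches per kb.

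The sites without HIF-1b held more AP-1 motifs and fewer HRE cores than the other HIF-2a sites of the same library. TGAGTCA was present in 23.1% (21.3 to 25.02%) of the new sites at a control HIF-1b window, a difference of 8.24 percentage points (Newcombe 95% interval 5.22 to 11.3). In the sites shared with control HIF-2a it was present in 22.3% (20.2 to 24.5%), a difference of 9.11 points (5.88 to 12.3). The HRE core was present in 52.6% and 53.0% of these classes, and the share in the sites without HIF-1b minus these was -26.0 points (-29.1 to -22.8) and -26.4 points (-29.8 to -22.95). Windows of HIF-1a without HIF-1b or HIF-2a in the HIF-1a re-expressing cells, which also lack the partner, went the other way, with TGAGTCA in 5.86% and the HRE core in 57.8% of 819 windows. Their median GC content in the central 300 bp was 63.3%, against 42.3% in the sites without HIF-1b. They are not compared within classes of GC content here.

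**Figure D2:**
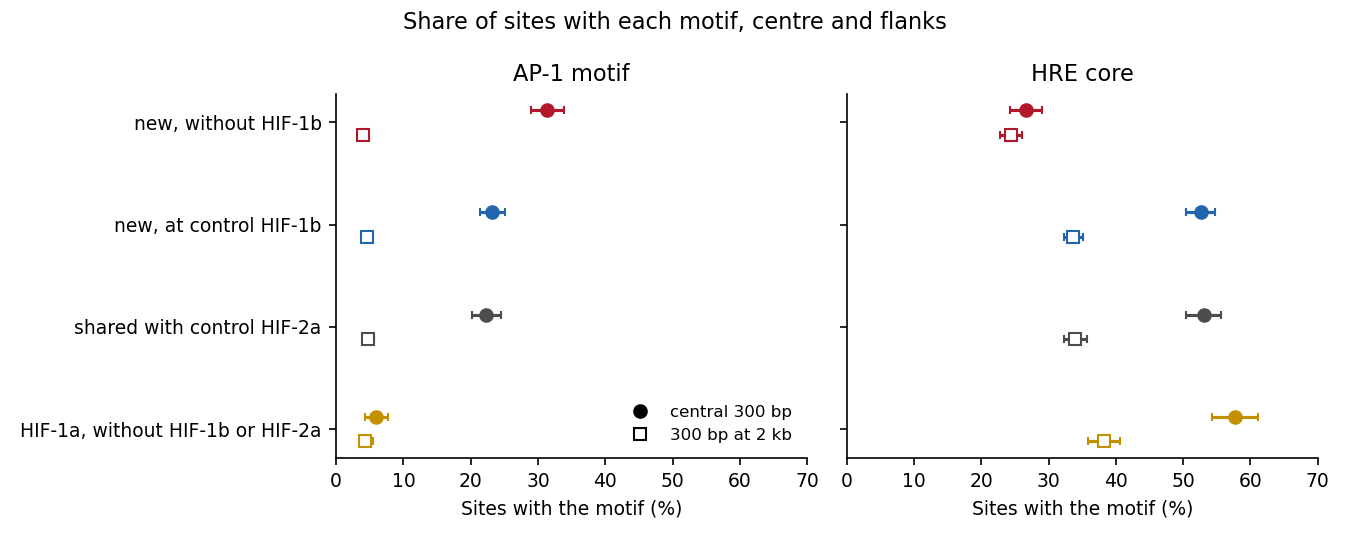
Percentage of sites with the AP-1 motif (left) and the HRE core (right) in the central 300 bp (filled circles) and in 300 bp stretches 2 kb to either side (open squares), with 95% exact binomial intervals, for 3 classes of HIF-2a sites and for HIF-1a windows without HIF-1b or HIF-2a. The new sites without HIF-1b are highest for AP-1 (31.4%) and lowest for HRE (26.6%), where centre and flanks nearly coincide.

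The sites without HIF-1b were also poorer in G and C, with a median of 42.3% in the central 300 bp against 52.3% and 50.3% in the new sites with HIF-1b and the shared sites, and held a median of 2 CG dinucleotides against 6 and 5. Since HRE cores contain CG, the shares were also taken within classes of GC content. Below 45% GC, TGAGTCA was present in 29.0% (26.1 to 32.1%) of 902 sites without HIF-1b, and in 20.8% of both the 424 new sites with HIF-1b and the 409 shared sites. The HRE core in the same classes was present in 22.8% (20.1 to 25.7%), 37.3% (32.6 to 42.1%) and 36.4% (31.8 to 41.3%). From 45 to 55% GC, the AP-1 shares were 36.0%, 26.7% and 24.0% and the HRE shares 31.6%, 49.9% and 55.3%. Above 55% GC, which holds 74 of the sites without HIF-1b, the AP-1 shares were 32.4%, 20.8% and 21.1% and the HRE shares 43.2%, 63.4% and 65.2%, so both differences kept their direction in each GC class.

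The AP-1 share was similar at all distances from a start site, with overlapping intervals. TGAGTCA was present in 28.5% (24.3 to 33.0%) of sites within 5 kb of a start site, 33.5% (30.2 to 36.9%) of those at 5 to 50 kb and 29.1% (22.5 to 36.3%) of those farther away. The HRE core was present in 31.9%, 25.3% and 19.6% of these. By distance to the nearest window of another list, the AP-1 share was 30.1% (23.6 to 37.2%) in the 186 sites within 5 kb and 39.4% (30.0 to 49.5%) in the 104 sites more than 500 kb away, and these intervals overlap.

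When all 7-letter words present in at least 2% of the site centres were ranked by their share in centres over flanks, TGACTCA stood first of 5162, at 7.72 times its share in the flanks. Of the next 7 words, 5 were shifted forms of the same motif. AACCGCA, second at 5.71 times, was rare (30 sites), and TGAATCA and TGACTAA, each 1 letter from the AP-1 motif, were present in 14.8% and 10.5% of sites at 2.86 and 3.13 times the flanks. With the middle letter left free, TGANTCA was present in 41.8% (39.2 to 44.4%) of sites and 9.08% of flanks.

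AACCACA, the reverse complement of the RUNX motif TGTGGTT, was after TGACTCA the most common of the 25 words ranked highest. TGTGGTT was present in 223 sites, or 15.8% (13.96 to 17.8%), against 5.54% (4.72 to 6.45%) of flanks and 6.70% of all windows. RUNX proteins are runt-domain transcription factors that bind many lineage enhancers. The word was as common in sites with TGAGTCA (16.3%, 12.97 to 20.1%) as without it (15.6%, 13.4 to 18.1%), within counting error. In the new sites with HIF-1b and in the shared sites it was present in 10.7% (9.36 to 12.1%) and 10.0% (8.53 to 11.7%), below the interval of the sites without HIF-1b. GGAATG, the motif of TEAD factors, was present in 23.2% (21.03 to 25.5%) of sites and 15.3% (13.95 to 16.6%) of flanks, and in 22.3% (20.5 to 24.2%) and 21.04% (18.99 to 23.2%) of the other classes, intervals that overlap. GGGCGG, bound by SP and KLF factors at promoters, was in 4.47% of sites and 3.30% of flanks, against 24.3% and 16.9% of the other classes and 38.9% of all windows.

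The sites without HIF-1b lay farther from start sites than the other HIF-2a sites of the same library. The median distance from midpoint to the nearest annotated start site, of any gene type, was 11.2 kb (quartiles 3.84 and 29.7 kb), against 4.04 kb for the new sites with HIF-1b and 6.13 kb for the sites shared with control HIF-2a. Within 5 kb of a start site lay 30.7% (28.3 to 33.1%) of them, against 53.5% (51.4 to 55.7%) and 44.7% (42.2 to 47.3%), differences of -22.9 (-26.1 to -19.6) and -14.1 (-17.5 to -10.5) percentage points. Beyond 50 kb lay 12.7% (11.01 to 14.6%), against 4.60% and 6.83%. Of the HIF-1a windows without HIF-1b or HIF-2a, 88.9% lay within 5 kb.

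**Figure D3:**
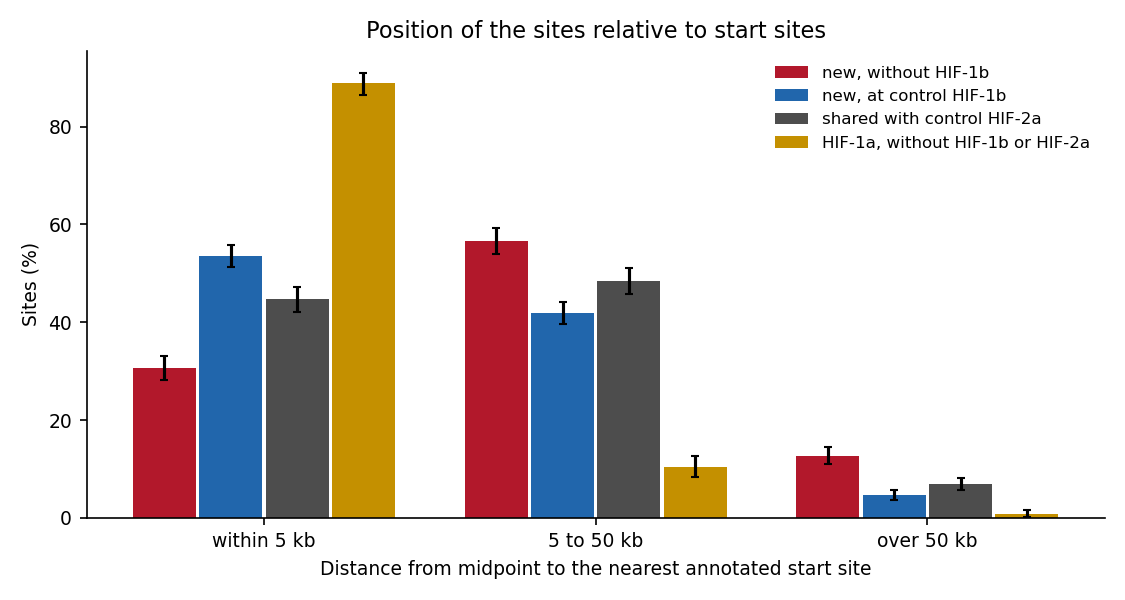
Percentage of sites by distance from midpoint to the nearest annotated start site, with 95% exact binomial intervals, for 3 classes of HIF-2a sites of the overexpressing cells and for HIF-1a windows without HIF-1b or HIF-2a. The new sites without HIF-1b have the lowest share within 5 kb (30.7%) and the highest beyond 50 kb (12.7%).

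By midpoint, 62.3% (59.7 to 64.9%) of the sites without HIF-1b were in introns, 31.7% between genes and 6.03% (4.85 to 7.41%) in exons, against 16.04% in exons for the new sites with HIF-1b. The nearest start site belonged to a protein-coding gene for 45.1% (42.5 to 47.8%) of sites, to a long non-coding RNA for 29.9%, to a pseudogene for 13.1% and to a small RNA for 10.8%. Protein-coding genes were nearest to 55.2% of the new sites with HIF-1b, a difference of -10.1 points (-13.4 to -6.68).

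The sites were spread unevenly over the chromosomes. Chromosome 7 held 0.905 sites per Mb, chromosome 8 0.895, chromosome 10 0.782 and chromosome 20 0.730, whereas chromosomes X, 14 and 22 held 0.0902, 0.130 and 0.156. Chromosome 22 had 0.568% of the sites without HIF-1b, but 2.64% of the new sites with HIF-1b and 3.52% of the shared sites. Chromosomes 16, 17 and 19 also had lower shares of the sites without HIF-1b, 1.85%, 1.70% and 0.852%. They had 4.11%, 4.65% and 3.33% of the new sites with HIF-1b, and 4.19%, 4.26% and 3.59% of the shared sites. Chromosome 4 went the other way, with 3.90% against 2.00% and 2.37%. Chromosomes 7, 8, 10 and 20 had 10.2%, 9.30%, 7.52% and 3.26% of the sites without HIF-1b. They had 8.61%, 7.87%, 7.43% and 3.03% of the new sites with HIF-1b, and 7.58%, 7.71%, 7.85% and 3.45% of the shared sites. Chromosomes 14 and X had few of these classes too (1.03% and 0.538%, 1.22% and 0.609%). Copy number in 786-O cells was not measured here, and its part in these densities was not tested.

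**Figure D4:**
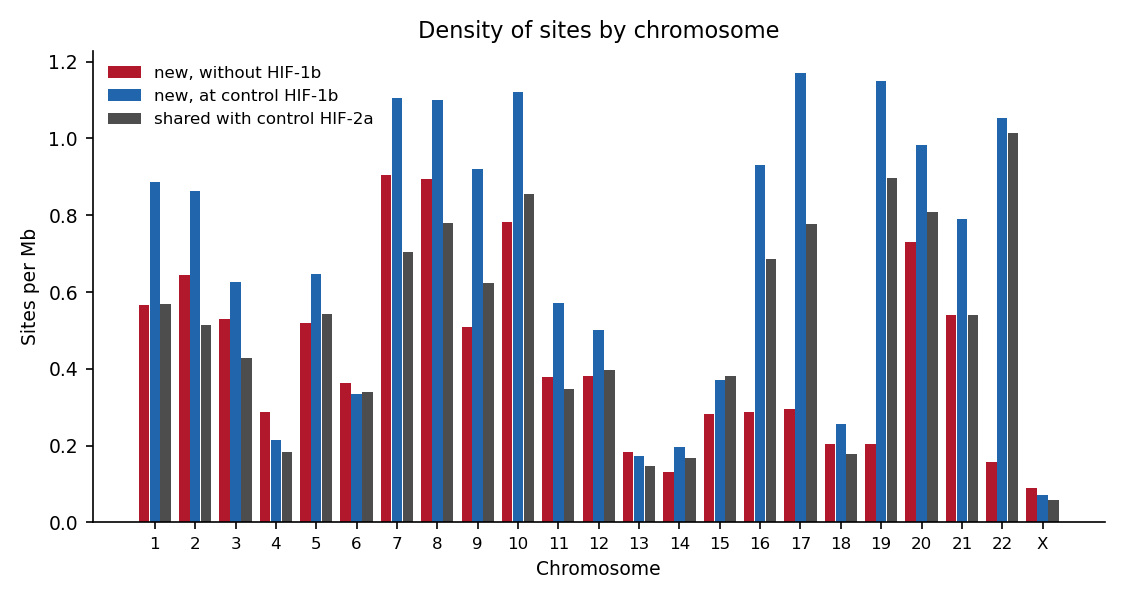
Sites per Mb on chromosomes 1 to 22 and X for the new sites without HIF-1b, the new sites at a control HIF-1b window and the sites shared with control HIF-2a. Chromosomes 7, 8, 10 and 20 are the densest for the sites without HIF-1b, and the gene-rich chromosomes 16, 17, 19 and 22 hold fewer of them than of the other classes.

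Some sites lay close together. Of the 1409, 333 (23.6%) had another within 50 kb by midpoint, and joining sites at up to this distance gave 1220 groups, of which 32 held 3 or more. The largest held 5 sites. One of these, on chromosome 10 (17064505 to 17196785), covered CUBN, the gene of the endocytic receptor cubilin of the proximal tubule, and TRDMT1, and 1 of its 5 sites held TGAGTCA. Another lay on chromosome 21 (39611667 to 39685138) at KCNJ15, an inwardly rectifying potassium channel gene, with no TGAGTCA. VMP1, an autophagy gene on chromosome 17, had 4 sites over 84.9 kb, 2 of them with TGAGTCA, and TGFB2, the gene of a TGF-beta ligand, 3 sites over 20.4 kb, 1 of them with the motif.

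In all, 1215 genes were the nearest to at least 1 site, 1070 of them to a single one, 111 to 2 and 34 to 3 or more. Of the 10 genes nearest to most sites, BICC1, which encodes an RNA-binding protein of the renal epithelium, and EXT1, a heparan sulfate polymerase gene, had 5 each. At BICC1 all 5 were in introns and none held TGAGTCA, whereas 3 of the 5 at EXT1 did. The small RNA gene RNU4-50P also had 5, and AFF3, CUBN, KCNJ15, LPP, VMP1, the non-coding gene LINC00973 and an unnamed locus had 4. RNA counts were given for 572 of the nearest genes, and 485, nearest to 593 sites, passed edgeR's filter on low counts and were tested.

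RNA-seq libraries held between 27852754 and 54287621 counts. The labels do not say whether replicates came from separate cultures, so p-values measure the spread between these libraries, which may be technical, and in bulk RNA fewer cells with a transcript cannot be told apart from less of it per cell. Expression is given in CPM, the share of a library's counts on a common scale, with edgeR's TMM factors. EPAS1, the gene of HIF-2a, was at 945.9, 3244 and 879.8 CPM in replicates 1 to 3 of the HIF-2a overexpressing cells and at 456, 224 and 162 CPM in the control libraries, with no overlap. The log2 fold change of EPAS1 was 2.59 (standard error 0.57, edgeR adjusted p = 0.490), and DESeq2 gave an adjusted p of 0.00127. HIF1A was at 171.5, 1682 and 473 CPM in the HIF-1a re-expressing cells against 30.4, 36.7 and 151.6 CPM in control cells. Of the markers, the renal lineage factor PAX8 was at a mean of 274 CPM and VIM at 5423 CPM in control cells, the proximal tubule markers LRP2, SLC34A1 and CUBN were at 0.0181, 0.242 and 2.11 CPM, and near 0 were the blood marker PTPRC and the endothelial marker PECAM1 (0.0284 and 0.213 CPM).

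Genes nearest the sites without HIF-1b showed no common direction in the HIF-2a overexpressing cells. With edgeR's quasi-likelihood test over 14225 genes, none of the 485 passed an adjusted p of 0.05 in either direction, as was so for all genes tested (0.0%). Without adjustment, p was under 0.05 for 24 that were higher (4.95%) and 33 that were lower (6.80%), beside 3.35% and 2.54% of all genes. Their median log2 fold change was 0.01, beside -0.02 over all genes. Taken within replicate numbers 1 to 3, the median log2 ratio was -0.08, 0.02 and 0.16, so that its sign differed between them.

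Genes nearest the HIF-2a sites with HIF-1b or in control cells were more often higher than lower at the same level of p, as were all genes tested (3.35% higher and 2.54% lower). Of 585 genes nearest a site shared with control HIF-2a, 53 were higher (9.06%) and 25 lower (4.27%) without adjustment, with a median log2 fold change of 0.09. Of 905 nearest a new site with HIF-1b, 56 were higher (6.19%) and 25 lower (2.76%), with a median of 0.03. Where the gene was nearest to a site without HIF-1b and to no other HIF-2a site of these cells (295 genes), 7 were higher (2.37%) and 22 lower (7.46%), with a median of -0.04. The groups of genes share members, and the differences between them were not tested.

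The replicate number was shared by libraries that deviated together, and with it as a block 5 of the 485 genes passed, 2 higher and 3 lower, beside 0.112% and 0.155% of all genes. With the block and without adjustment, 53 of the 485 were higher (10.9%) and 65 lower (13.4%), beside 7.69% and 6.84% of all genes. Of the 295 genes nearest no other HIF-2a site, 22 were higher (7.46%) and 45 lower (15.3%) in that fit. DESeq2, without the block, called 2 higher and 2 lower, beside 0.247% and 0.176%. These 4 were C5orf46, SYT13, COL14A1 and FPR1, the gene of a formyl peptide receptor (log2 fold change -2.20, SE 0.57, DESeq2 adjusted p = 0.0364). FPR1 was at 0.361, 0.349 and 1.03 CPM in the overexpressing cells against 1.60, 2.30 and 4.12 CPM in control cells, low but without overlap. None of the genes called by either had TGAGTCA in the centre of its site. Of all 485 genes, 160 were nearest a site that held it, and no test was made on so few calls. The called genes are described next, and C5orf46 and FPR1 were named after their values were seen.

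C5orf46, a gene for a small secreted protein, was at 1.37, 1.43 and 4.39 CPM in the overexpressing cells and at 0.0517, 0.0853 and 0.130 CPM in the control libraries, which do not overlap. The log2 fold change of C5orf46 was 4.70 (SE 0.68, edgeR adjusted p = 0.187, 0.0135 with the block), and its site, with 1 HRE core, lay 4.75 kb from an annotated start. The gene was also the single one of the 485 that passed in the direct comparison of HIF-2a overexpressing with HIF-1a re-expressing cells, where 3 of 14225 genes (0.0211%) were higher, with a log2 difference of 6.17 (SE 0.76, edgeR adjusted p = 0.0462), and 4 (0.0281%) were lower, none of them among the 485. With the block, 16 of the 485 were higher and 49 lower in that comparison, beside 1.38% and 4.54% of all genes. C5orf46 was near 0 in all control and HIF-1a re-expressing libraries and passed the filter on low counts only through the overexpressing cells, where it is high, and its level stayed under 5 CPM in every library.

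SYT13, of the synaptotagmin family of membrane traffic proteins, was at 159, 383 and 203 CPM in the overexpressing cells against 73.7, 93.7 and 57.3 CPM in control cells. The groups did not overlap, and the log2 fold change was 1.73 (SE 0.40, edgeR adjusted p = 0.548, 0.0404 with the block, and 0.0155 in DESeq2). Its site, in an intron 12.1 kb from an annotated start, held 2 HRE cores.

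KCNJ16, an inwardly rectifying potassium channel gene of the renal tubule, was at 1.28, 2.48 and 12.3 CPM in the overexpressing cells against 9.65, 38.5 and 46.9 CPM in control cells. Each overexpressing library was below the control library of the same number, although the groups overlapped. The log2 fold change was -2.57 (SE 0.99, edgeR adjusted p = 0.824, 0.0191 with the block). Its site lay 0.021 kb from an annotated start inside the gene. The gene begins at 68049570 on the plus strand and the window at 68070192. The site held neither motif.

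COL14A1, the gene of a fibril-associated collagen, was at 3.13, 1.43 and 3.26 CPM against 11.3, 12.9 and 11.4 CPM, without overlap, with a log2 fold change of -2.18 (SE 0.37, edgeR adjusted p = 0.466, 0.0372 with the block, 1.4e-05 in DESeq2). GPR15, a G protein-coupled receptor gene of lymphocyte homing, was at 1.47, 0.593 and 1.95 CPM against 8.07, 2.28 and 7.01 CPM, with a log2 fold change of -2.10 (SE 0.64, edgeR adjusted p = 0.730, 0.0372 with the block). The GPR15 site shown above has a GCGTG core near its midpoint. All 3 overexpressing libraries lay below all 3 control libraries for both genes.

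The other genes named here were chosen by this same contrast, as those nearest a site within 50 kb that had a mean of at least 5 CPM in 1 group, the same direction in every numbered pair of libraries and the largest change, so their directions are a description. None passed an adjusted p of 0.05 in edgeR, with or without the block, or in DESeq2. PLXNA2, a semaphorin receptor gene, was at 15.4, 10.6 and 34.9 CPM in the overexpressing cells against 6.42, 0.910 and 1.04 CPM in control cells (log2 fold change 2.86, SE 1.04). Its site lay between genes, past the downstream end of PLXNA2 and 22.2 kb from an annotated start inside the gene. The site held both motifs. EGFR, the receptor tyrosine kinase gene, was at 152, 372 and 134 CPM against 125, 90.6 and 38.1 CPM (log2 fold change 1.38, SE 0.48). The groups did not overlap, and 6 other HIF-2a sites of these cells also had EGFR as their nearest gene.

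TNFSF10, the gene of the death ligand TRAIL, was at 259, 1112 and 1487 CPM in the overexpressing cells against 210.3, 491 and 538 CPM in control cells (log2 fold change 1.20, SE 0.79), and replicate 1 of the overexpressing cells lay within the control range. CP, the gene of the copper-carrying ferroxidase ceruloplasmin, was at 184, 367 and 407 CPM against 174, 114 and 119 CPM (log2 fold change 1.23, SE 0.50). Its site, with TGAGTCA, lay in an intron 0.210 kb from an annotated start, and no other HIF-2a site had CP as nearest gene. TSPAN2, a tetraspanin gene, was at 92.3, 122 and 72.9 CPM against 22.6, 34.4 and 62.9 CPM (log2 fold change 1.26, SE 0.45), also with TGAGTCA in its site.

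The last group that was higher had sites without TGAGTCA. TRIO was at 377, 589 and 471 CPM against 216, 265 and 158 CPM (log2 fold change 1.17, SE 0.30, edgeR adjusted p = 0.0506 with the block). It had 2 of the sites and 10 other HIF-2a sites. CA12, a membrane carbonic anhydrase gene, was at 726, 1366 and 1071 CPM against 712, 356 and 414 CPM (log2 fold change 1.09, SE 0.39). LINC01004 and ATRNL1 had log2 fold changes of 1.109 (SE 0.32) and 1.02 (SE 0.43).

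Among genes that were lower, ITGB6, the gene of the beta subunit of an epithelial integrin, was at 1.59, 1.15 and 3.802 CPM in the overexpressing cells against 1.68, 14.2 and 12.2 CPM in control cells (log2 fold change -2.10, SE 0.78). TNFRSF11B, the gene of the decoy receptor osteoprotegerin, was at 0.939, 1.29 and 2.72 CPM against 4.63, 3.47 and 15.97 CPM (log2 fold change -2.28, SE 0.67), without overlap. VAV3 was at 0.554, 2.72 and 9.53 CPM against 1.45, 22.96 and 28.1 CPM (log2 fold change -2.03, SE 1.42). The sites of ITGB6 and TNFRSF11B held TGAGTCA.

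**Figure D5:**
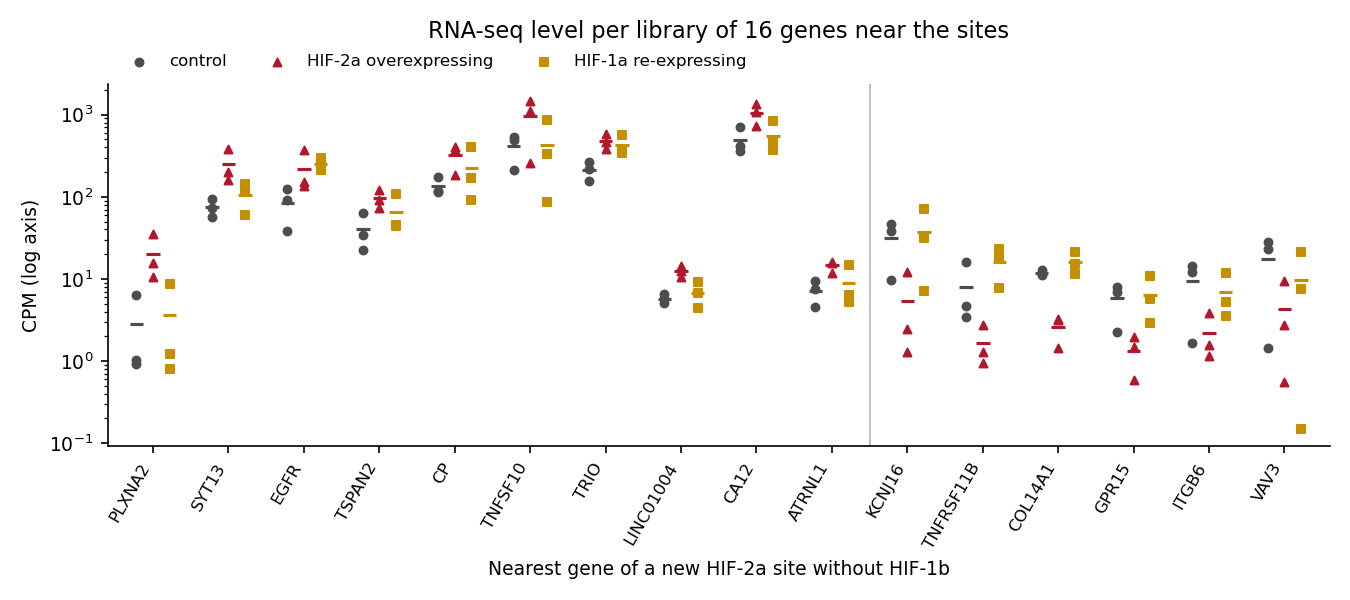
CPM on a log axis of 16 genes nearest a new HIF-2a site without HIF-1b, per library (points, 3 for each kind of cell) with the mean (bar). Among genes within 50 kb of their site, with a mean of at least 5 CPM in 1 group and the same direction in all 3 numbered pairs, the 10 with the largest upward difference between HIF-2a overexpressing and control cells stand left of the line and the 6 with the largest downward one right of it. In the HIF-1a re-expressing cells EGFR (209 to 301 CPM) lies above its control libraries (38.1 to 125 CPM).

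Genes with several sites showed no common direction either. Of 76 tested genes nearest to 2 or more sites, 5 were higher (6.58%) and 6 lower (7.89%) without adjustment, beside 3.35% and 2.54% of all genes, with a median log2 fold change of -0.04. EXT1 was at 226, 220.4 and 290.2 CPM in the overexpressing cells against 229, 221 and 289 CPM in control cells, the same within their spread. BICC1 was at 40.1, 83.9 and 79.1 CPM against 29.4, 71.2 and 36.8 CPM (log2 fold change 0.56, SE 0.51). LPP, a focal adhesion LIM protein gene with 4 sites and no TGAGTCA or HRE core in any of them, was at 223, 280.1 and 196 CPM against 166, 165 and 111 CPM, without overlap (log2 fold change 0.66, SE 0.25, edgeR adjusted p = 0.824).

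The genes were also divided by the AP-1 motif in their sites. Of 160 tested genes nearest a site with TGAGTCA, 9 were higher (5.63%) and 14 lower (8.75%) without adjustment, with a median of 0.01. Of 325 genes whose sites all lacked it, 15 were higher (4.62%) and 19 lower (5.85%), with a median of 0.01, beside 3.35% and 2.54% of all genes. With the block the medians were 0.042 and 0.021. The difference between these groups was not tested. Genes whose start lay within 10 kb of a site (304) had a median of 0.02, with 16 higher (5.26%) and 21 lower (6.91%).

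In the HIF-1a re-expressing cells, whose HIF lists hold none of these sites, the same genes had a median above 0. This comparison uses the same control libraries as the one above. No gene passed in edgeR without the block (0.0% of all genes), where 70 of the 485 were higher and 24 lower (14.4% and 4.95%) without adjustment, beside 11.1% and 8.23% of all genes. With the block, 40 rose (8.25%) and 8 fell (1.65%), beside 5.41% and 2.55% of all genes. The median log2 fold change was 0.17, beside 0.04 over all genes, and 61.6% of the genes were above 0. Genes nearest a site shared with control HIF-2a had a like median, 0.15.

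EGFR was among the genes that rose in these cells with the block, at 301, 251 and 209 CPM, with a log2 fold change of 1.71 (SE 0.36, edgeR with block adjusted p = 0.0366). BICC1 (1.43, SE 0.26, adjusted p = 0.0327), TRIO (0.98, SE 0.19, adjusted p = 0.0358) and LPP (0.81, SE 0.19, adjusted p = 0.0413) rose too, by the same fit. For these 4 genes the log2 fold change in the HIF-2a overexpressing cells was 1.40, 0.58, 1.17 and 0.66 in the fit with the block.

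The genes of AP-1 itself did not pass the test in the HIF-2a overexpressing cells. All 7 subunit genes (FOS, FOSB, FOSL1, FOSL2, JUN, JUNB and JUND) were tested, none passed in either fit, none had an unadjusted p under 0.05 without the block, and their median log2 fold change was -0.23. JUN was at a mean of 265 CPM in overexpressing and 186 CPM in control cells, and FOSL1 at 168 and 197 CPM. FOS and FOSB were highest in replicate 2 of every group, at 101.5 and 106.996 CPM in the control cells, and without that control library their log2 fold changes of -1.08 and -1.64 became 2.01 and 1.69. No site without HIF-1b lay within 50 kb of a start of any of these genes or of EPAS1, HIF1A and ARNT.

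Among 23 genes known to respond to HIF, 5 had such a site within 50 kb of a start, beside 6.85% of all 13775 tested genes that could be placed. These were TGFA, EGLN3, NDRG1, IGFBP3 and EGFR, and only EGFR was the nearest gene of its site. EGLN3, the gene of the HIF prolyl hydroxylase PHD3, was at 356, 912 and 650.4 CPM in overexpressing cells against 128, 205 and 171 CPM in control cells and rose with the block (log2 fold change 1.83, SE 0.26, edgeR adjusted p = 0.0372), with its site 48.5 kb away. TGFA, a growth factor gene that signals through EGFR, was at 1528, 2567 and 2858 CPM against 958, 570.5 and 970.5 CPM, with a log2 fold change of 1.48 (SE 0.32, edgeR adjusted p = 0.490, 0.00372 in DESeq2). Of the 23 genes, 11 were higher and none lower without adjustment, beside 3.35% and 2.54% of all genes. None passed without the block (0.0% of all genes), and 2 rose with it, EGLN3 among them, beside 0.112% of all genes. The median log2 fold change of the 23 genes was 0.90, beside -0.02 over all genes and 0.01 for the genes nearest the sites without HIF-1b.

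Of 14 genes known to respond to AP-1, 13 were tested and none passed, with a median log2 fold change of 0.02. Sites without HIF-1b lay within 50 kb of 3 of them. CD44, the hyaluronan receptor gene, had 3 such sites, the nearest 0.123 kb from a start and 1 of them with TGAGTCA, and was at 556, 316 and 378 CPM in overexpressing against 578, 409 and 383 CPM in control cells (log2 fold change -0.13, SE 0.27). PLAU, the urokinase gene, was at 190.2, 107.2 and 208 CPM against 258, 70.7 and 105 CPM, and its site, with TGAGTCA, lay 21.3 kb away. CXCL8, the gene of interleukin 8, was at 28.8, 20.9 and 193 CPM against 19.6, 27.2 and 38.1 CPM (log2 fold change 1.52, SE 0.84). Overexpressing replicate 3 alone lay above the control range, and without it the log2 fold change was -0.18.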

How the data were processed

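For ChIP-seq the authors deposited peak positions, 1 list per library. By their methods and processing notes, reads were trimmed (Trim Galore 0.3.3) and aligned to GRCh37 (BWA 0.7.5a-r405), reads of low mapping quality (SAMtools 0.1.19), blacklisted regions (bedtools 2.17.0) and duplicates (Picard 1.106) were removed, and peaks called by both T-PIC and MACS were kept if their reads exceeded those of random DNase regions. The RNA-seq table that the authors deposited holds unnormalized read counts by gene symbol, made with TopHat2 2.0.8b, Bowtie 1.0.0 and HTSeq 0.5.4p3 on UCSC genes, with replicates kept apart.

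The member sites and the gene lists were chosen with earlier results of these data known. Overlap meant at least 1 shared base. Start sites came from GENCODE lifted to GRCh37 (64449 genes, 221300 start sites). They are those of all transcripts, so the start nearest a site may lie inside its gene. Of 23441 counted symbols, 20654 matched by symbol, 1393 by synonym and 1394 not at all. Motifs were searched on both strands within 150 bp of the midpoint and in equal stretches 2000 bp to either side (Python 3.11.15, samtools 1.23.1). Shares have exact 95% intervals (scipy 1.17.1). Positions and motifs were compared with no test, since each list is 1 library.

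The counts of all 9 libraries entered 1 fit in edgeR 4.0.16 (R 4.3.3) with the cells as the only term, TMM factors and its filter on low counts, which left 14225 genes. Quasi-likelihood p-values were adjusted by Benjamini and Hochberg's method over all of them. The file columns carry replicate numbers that pair the libraries: after subtracting the mean of each kind of cell, the 9 pairs with the same number had correlations of 0.348 to 0.652, and the 18 with different numbers of -0.478 to 0.0281. A fit with the number as a block and DESeq2 1.42.0, which the authors used to rank genes, were alternatives. Both the motif search and the expression test were tested on simulated data. Library totals were 27852754 to 54287621 counts, and counting error was not separated from the spread between replicates.

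Named genes were those of the fixed lists, the 10 nearest to most sites, and, among tested genes within 50 kb of their site with a mean of 5 CPM or more in whichever group was higher and 1 direction in all 3 numbered pairs, the 10 with the largest positive and the 6 with the largest negative log2 fold change. Of their sites, those off chromosome 8 with no annotated exon in the 200 bases were considered for printing. Sites with a motif were ordered by its distance from the midpoint, and sites with neither motif were considered too. The input libraries were not used here.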

Additional observations from a re-analysis of the deposited data

How the results depend on the processing

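Requiring that windows share at least 50% with another list, or treating any window within 5 kb as overlapping, kept the number of sites within 1.5 times the 1409 reported and their motif shares and distances near those reported. Counting windows as overlapping only when midpoints lay within 250 bp gave 2476 sites, with TGAGTCA in 25.8%, the HRE core in 31.9% and 39.9% within 5 kb of a start site. The share of sites with TGAGTCA was 13.2% in the central 100 bp, 41.4% in 500 bp, 69.8% in the whole window and 41.8% for TGANTCA. The share with the HRE core was 9.08%, 39.0% and 85.1% in these stretches and 15.6% for ACGTG alone. Counting only the starts of coding genes, 18.2% of sites lay within 5 kb and the median distance was 33.5 kb. With 1 start site per gene these were 18.1% and 21.01 kb.

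Tested genes nearest the sites that passed rose from 0 higher and 0 lower to 2 and 3 with the replicate block, which pairs the libraries, and to 2 and 2 with DESeq2. Leaving out single libraries or dropping the filter on low counts left both counts at 0. Other start sites and distance limits could not change them, since the edgeR fit without the block called 0 of all 14225 genes in either direction. The median log2 fold change stayed between -0.03 and 0.07 when single libraries were left out. Of 77 named genes, 6 passed with the block, where 0.112% of all genes were higher and 0.155% lower. In DESeq2 10 passed, beside 0.247% and 0.176% of all genes. All were in the direction reported, but some of the 77 were chosen by this same contrast, so these counts are a description. A change of sign occurred 36 times, in 21 genes, never with a call. JUNB was at -0.050 with the replicate block, and the others arose on leaving out a library, with ranges of the log2 fold change for CA9 (-5.37 to 1.89), CD44 (-0.39 to 0.073), COL1A1 (-0.55 to 0.95), CUBN (-0.59 to 0.27), CXCL8 (-0.18 to 1.962), DUSP1 (-0.23 to 0.74), EXT1 (-0.13 to 0.12), FOS (-3.60 to 2.01), FOSB (-4.35 to 1.69), IL11 (-1.39 to 1.07), IL6 (-0.98 to 0.65), JUNB (-0.54 to 0.53), KCNJ15 (-0.73 to 0.26), MMP10 (-7.49 to 0.29), MMP14 (-0.064 to 0.52), NDUFA4L2 (-0.68 to 1.90), PFKFB3 (-0.019 to 0.50), PLAU (-0.11 to 0.94), PLAUR (-0.27 to 0.57), TIMP1 (-0.63 to 0.056) and VMP1 (-0.32 to 0.042). The lists hold no depth or signal, so a site without HIF-1b may be bound below the calling threshold.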

Other observations

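The AP-1 matches in the new HIF-2a sites without HIF-1b were flanked by every base. Read with 1 letter to either side, CTGAGTCAC made up 12.2% of the matches, CTGAGTCAT 10.1%, ATGAGTCAG 9.51% and ATGAGTCAT 8.56%. In the 967 sites without TGAGTCA, the words most above their flanks were CGGCTCC, in 25 sites, and AACCGCA, in 23. The more common TGACTAA was in 111 of these sites, at 3.496 times its share in the flanks, and TGAATCA in 147, at 2.95 times.

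CCAAT, the NF-Y motif, was present in 35.6% (33.1 to 38.2%) of the sites and 38.3% (36.5 to 40.1%) of their flanks. AGATAA, the GATA motif, was in 21.4% and 20.9%, and TGTTTAC, the motif of forkhead factors, in 4.68% and 4.44%. The variant TGACGTCA, bound by CREB and ATF proteins, was in 3 sites, and the E-box CACGTG, which contains an HRE core, in 41 sites (2.91%) and in 8.16% of all windows. A degenerate CTCF word was in 17 sites (1.21%) and 2.48% of all windows.

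Of 15 marker genes of renal and other cells, 4 had a site without HIF-1b within 50 kb of a start, NDUFA4L2, CDH6, CUBN and COL1A1. CDH6, the gene of kidney cadherin, was at 14.03, 32.8 and 136 CPM in the HIF-2a overexpressing cells and at 36.5, 176 and 457 CPM in control cells, lower in 3 of 3 numbered pairs (log2 fold change -1.87, SE 1.10, edgeR adjusted p = 0.842, 0.0991 with the replicate block).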
